A study of Mus musculus with 2 samples.

Results

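Dividing CD4 T cells made up 211 of the 1475 cells kept from the spleens of transplanted mice given tacrolimus. A cell was counted as a dividing CD4 T cell when it had at least 200 detected genes, a transcript of Cd4, none of Cd8a or Cd8b1, and a transcript of Mki67 or Top2a. The cells were thus chosen by their measured UMIs of 5 genes, and the values of these genes are given only as a description. UMIs, or unique molecular identifiers, count captured RNA molecules. The tacrolimus library held 1688 cells in all, and the study's 2 libraries together 3239. The cells set beside them came from the same library: 843 dividing CD8 cells (Cd8b1 present, Cd4 absent, with Mki67 or Top2a), 83 CD4 cells and 158 CD8 cells with neither Mki67 nor Top2a, and the 1264 kept cells that were not dividing CD4 cells.

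Lethal irradiation of wild-type (WT) BALB/C recipients was followed by an injection into the vein of spleen and bone marrow cells from WT C57BL/6 donors, a mouse model of haematopoietic cell transplantation across a strain barrier. Tacrolimus was given from day 0 to day 6, and spleen cells were taken on day 6. All cells described here share that treatment, and the number of animals behind the library is not stated in the labels. The other library, from recipients given an anti-IL-2 antibody, was not compared here because its deposited values run below 0, as values shifted to match another library do. With 1 library per treatment there is no replicate check on any difference. The intervals below are exact 95% intervals that cover counting error only, and a gene was called higher or lower when its level differed by at least 1.5-fold, with no test.

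CD4 T cells are the helper lineage. Through the CD40 ligand they license B cells and dendritic cells, and their cytokines steer other lymphocytes, whereas CD8 T cells mainly kill target cells with perforin and granzymes. After transplantation into a mismatched host, donor T cells of both lineages that recognise host antigens divide and can cause graft-versus-host disease. Tacrolimus inhibits calcineurin, the phosphatase that activates NFAT transcription factors below the T-cell receptor, and Mki67 and Top2a encode a nuclear protein and a DNA topoisomerase that cells make during the S, G2 and M phases.

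Sequencing depth was similar in the dividing groups. Dividing CD4 cells had a median of 13431 UMIs and 438 of the 2000 genes in the file, and dividing CD8 cells 15238 UMIs and 443 genes. The CD4 and CD8 cells without Mki67 and Top2a were shallower, with medians of 8680 and 8727.5 UMIs. Because of this gap, levels are given as UMIs per 10000 UMIs of the cells, and shares of cells with a UMI are also given after each cell was thinned to 5000 UMIs where depth bears on them. A total of 4 cell barcodes occurred in both libraries, and 0 of them belonged to dividing CD4 cells.

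The labels call these cells T cells. Of 13 general T-cell markers only Cd5, a receptor that dampens T-cell receptor signals, was in the file, and 91.5% of dividing CD4 cells had it. A reference set of 42 kept cells was chosen by at least 2 markers of B, plasma, erythroid or myeloid cells and no UMI of Cd4, Cd8a, Cd8b1 or Cd40lg, without regard to Cd5, and 0 of them had Cd5, at a median of 9651 UMIs. Among the markers of other cells, Ms4a1 of B cells was at 0 in dividing CD4 cells, as were 6 of 8 erythroid markers. Summed B-cell markers stood at 0.81 UMIs per 10000 in dividing CD4 cells and 0.526 in dividing CD8 cells, and summed myeloid markers at 0.117 and 0.118. A total of 19 dividing CD4 cells had 2 or more B-cell marker UMIs and 6 had 2 or more myeloid marker UMIs. Plasma-cell markers reached 0.876 UMIs per 10000, and 1 cell had 2 or more of these UMIs. The part of these transcripts in the differences below was not tested, but leaving out the cells that carried them left 187 dividing CD4 cells and turned the direction of 0 called ratios among the 49 to dividing CD8 cells that were followed across settings.

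The genes of the rule were spread unevenly. Cd4 (chr6:124864692-124888221, mm10) had a median of 3 UMIs per cell and a maximum of 14, and 34 of the 211 cells had a single Cd4 UMI. Mki67 (chr7:135689784-135716361) had a median of 5 and a maximum of 45 UMIs, with 19 cells at 0, and Top2a (chr11:98992943-99024189) a median of 8 and a maximum of 36, with 24 cells at 0. A total of 168 cells had both. The 23 cells just inside the limit, with 1 UMI of Mki67 and Top2a together, had 58.7 UMIs per 10000 of 79 other G2/M genes, against 215 in the 188 cells with 2 or more and 34.7 in the 83 CD4 cells with 0. Cells with 1 Cd4 UMI had Cd40lg in 52.9% of cells and those with 2 or more in 68.4%. At the gene minimum, 5 of the 211 cells lay fewer than 20 genes above it, and 1 cell up to 20 genes below it would otherwise have entered.

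Dividing cells made up a smaller share of CD4 than of CD8 cells. Mki67 or Top2a was found in 71.8% of 294 CD4 cells (interval 66.3 to 76.8%) and in 84.2% of 1001 CD8 cells (81.8 to 86.4%). After thinning to 5000 UMIs the shares were 63.2% and 76.6%, in the same order. The share depends on the gene minimum, since cells without Mki67 and Top2a had fewer genes: with no minimum it was 64.8% and 81.7%, and with 300 genes 88.5% and 94.5%.

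The comparison with dividing CD8 cells asked how CD4 and CD8 cells that divide under the same treatment differ. Of 928 genes seen in at least 5% of either group, 145 were higher in dividing CD4 cells, which is 15.6% of those tested, and 110 were lower, which is 11.9%. The median log2 ratio over all tested genes was 0.07. The lists below were read against these shares.

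Genes of the helper lineage were higher in dividing CD4 cells in 8 of 9 cases, and the list's median log2 ratio was 1.70. Cd40lg (chrX:57212143-57224042), the ligand that engages CD40 on antigen-presenting cells, differed most of all named genes. It was found in 65.9% of dividing CD4 cells (interval 59.1 to 72.2%) and in 1.30% of dividing CD8 cells (0.653 to 2.32%). Cd40lg levels were 0.946 and 0.00915 UMIs per 10000, a ratio of 103 (interval 59.5 to 196). Icos (chr1:60977927-61000320), a costimulatory receptor, was found in 87.7% and 66.2% of cells, with a median of 3 and 1 UMIs per cell and a 3.26-fold higher level. Tnfrsf4 (chr4:156013843-156016612), which encodes the costimulatory receptor OX40, was in 52.6% of dividing CD4 cells and 17.4% of dividing CD8 cells, at a 4.11-fold higher level. Of the 42 cells of other lineages, which should lack these genes, 4.76% had Icos and 0 had a Tnfrsf4 UMI, where a floor of 3 cells is a share of 7.14%.

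The other helper-list genes followed. Izumo1r, the folate-receptor family member FR4, was 8.98-fold higher (13.7 against 2.37% of cells) and Tnfsf8, the CD30 ligand, 6.20-fold higher (10.9 against 2.61%). Cd6 was 2.82-fold and Cd5 2.45-fold higher, and the inhibitory receptor gene Ctla4 2.05-fold, although Ctla4 was found in nearly equal shares of cells, 71.1% and 63.3%, and its log2 ratio by thinned shares was 0.40, short of 1.5-fold. The integrin chain Itgb1 stood at 3.05 and 2.15 UMIs per 10000 and did not reach 1.5-fold. Icos and the transcription factor Maf were also found in cells without Cd40lg. The 72 dividing CD4 cells without a Cd40lg UMI had Maf in 55.6% of cells, Icos in 86.1% and the killer-cell receptor Klrk1 in 6.94%. In dividing CD8 cells these shares were 13.5% for Maf, 66.2% for Icos and 69.3% for Klrk1. The cytotoxic genes Gzma and Gzmk were in 48.6% and 41.7% of the 72 cells. Dividing CD4 cells with Cd40lg had them in 39.6% and 24.5%. The cytotoxic gene Prf1 was in 36.1% of cells without and 38.1% with Cd40lg.

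**Figure D1:**
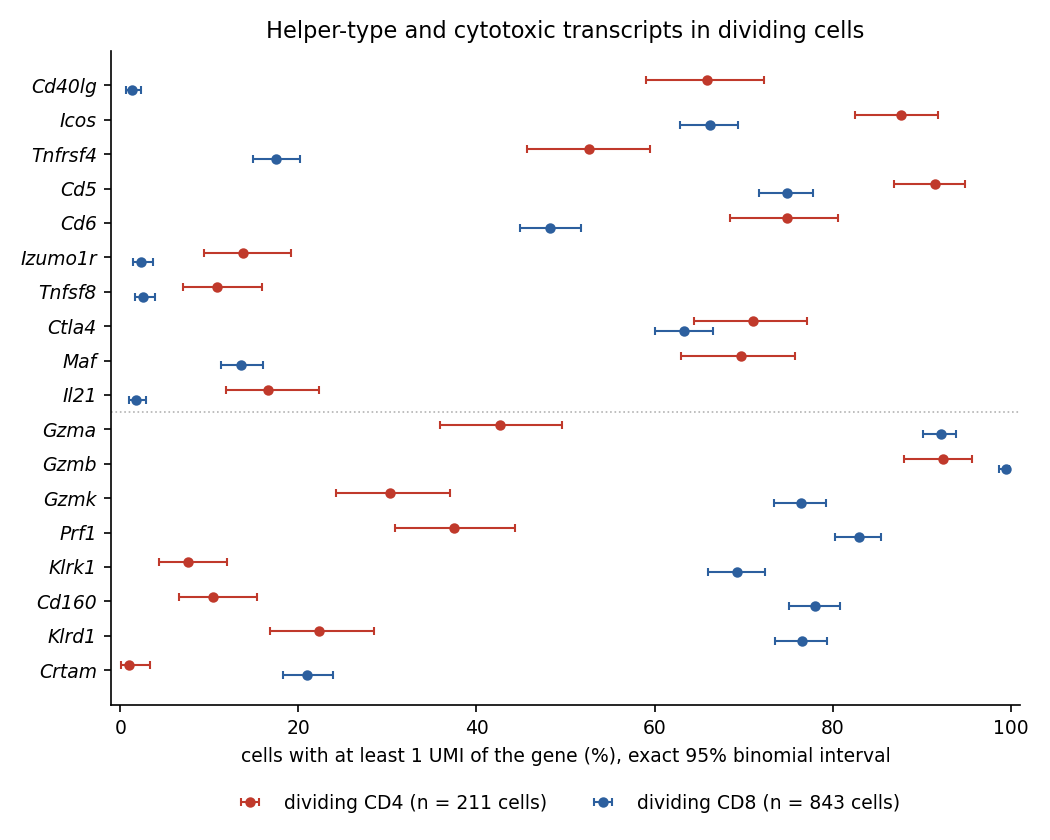
Percent of cells in which each gene had 1 UMI or more (x axis) in 211 dividing CD4 and 843 dividing CD8 cells, with exact 95% binomial intervals as bars. Above the dotted line are helper-type genes, all with a higher share in dividing CD4 cells, from Ctla4 (71.1 against 63.3%) to Cd40lg (65.9 against 1.30%). Below it are cytotoxic genes and killer-cell receptors, all with a lower share.

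Transcripts linked to help for B cells and to regulation also stood out. Il21 (chr3:37222759-37232636), a cytokine of helper cells that acts on B cells, was found in 16.6% of dividing CD4 cells and 1.78% of dividing CD8 cells, at 0.212 and 0.0134 UMIs per 10000, a ratio of 15.8 (interval 9.40 to 27.9). Maf (chr8:115682942-115707794), a transcription factor that promotes Il21 and Il10, was in 69.7% against 13.5% of cells and 10.2-fold higher. The cells of other lineages had Il21 in 0% and Maf in 21.4% of cells, and Maf stood at 0.459 UMIs per 10000 there against 0.105 in dividing CD8 cells. Cd200 was 3.71-fold higher. Of the follicular helper list, 4 of 5 tested genes were higher (Icos, Il21, Cd200 and Maf) and Pdcd1, which encodes the receptor PD-1, was 1.96-fold lower. Across settings the log2 ratio of Pdcd1 came as near to 0 as -0.39, short of 1.5-fold. Cxcr5, the receptor that guides follicular helper cells, had 0 UMIs in both dividing groups, where a floor of 3 cells is a share of 1.42% of dividing CD4 cells. A cell without a UMI may still express the gene.

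Regulatory genes gave a mixed picture. Of 10 tested genes of the regulatory and type 1 regulatory (Tr1) list, Ikzf2, Il10, Ctla4, Maf and Ebi3 were higher in dividing CD4 cells, while Lag3 and Tnfrsf9 were lower. Foxp3, the defining factor of regulatory T cells, was found in 1 of 211 dividing CD4 cells. Ikzf2 was in 24.2% against 14.5% of cells at a 2.90-fold higher level. Il10 was in 8.06% against 3.32% and Ebi3 in 11.4% against 1.30%, and the 42 cells of other lineages, some of which can express both genes, had Il10 in 14.3% and Ebi3 in 21.4%.

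Of 6 tested type 1 helper genes, Ifng, Il12rb2, Tnf and Cxcr6 were higher and Ly6c2 lower. Il12rb2 (chr6:67291318-67376188), a chain of the receptor for interleukin 12, was found in 60.2% of dividing CD4 and 36.1% of dividing CD8 cells, a 2.71-fold higher level. The inflammatory cytokine Tnf was 2.94-fold higher (12.3 against 5.10% of cells, and 9.52% of the cells of other lineages), and the chemokine receptor Cxcr6 1.89-fold higher (86.7 against 77.9%). Ifng (chr10:118441046-118445892), the defining cytokine of type 1 responses, was 1.59-fold higher in level but present in nearly the same share of cells, 32.7% and 33.7%. Its UMIs were concentrated: the 11 dividing CD4 cells with most Ifng held 64.0% of them, against 49.9% for the 43 top dividing CD8 cells. Under median-of-ratios scaling, the mean over cells, thinned shares and without the deepest 10% of cells Ifng lost its call, with log2 ratios between 0.35 and 0.58, and by thinned shares Cxcr6 lost it too, at 0.43. Ly6c2 stood at 3.33 against 9.48 UMIs per 10000.

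The cytotoxic list was lower in dividing CD4 cells in 9 of 13 cases and higher in 0, with a median log2 ratio of -1.31. Gzma (chr13:113093825-113100981) had a median of 0 UMIs in dividing CD4 cells and 31 in dividing CD8 cells, and its level of 3.11 UMIs per 10000 was 10.8-fold below that of 33.5. Prf1 (chr10:61297833-61304680), which encodes the pore-forming protein perforin, was found in 37.4% against 82.9% of cells at a 6.36-fold lower level. Neither Gzma nor Prf1 had a UMI in the 42 cells of other lineages. Gzmk was 4.76-fold lower, the transcription factor Eomes 3.73-fold and the adhesion receptor Crtam, with 2 UMIs in dividing CD4 cells, 26.9-fold (interval 7.38 to 224).

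Gzmb (chr14:56258838-56262260), the gene of granzyme B, was widespread in both groups. It was lower in dividing CD4 cells by 2.32-fold, yet 92.4% of them had it, with a median of 17 UMIs per cell against 53 in dividing CD8 cells. Across settings its log2 ratio ran from -1.29 to -0.14, the latter short of 1.5-fold. In the 42 cells of other lineages 9.52% had Gzmb. The granule gene Nkg7 was found in 98.1% of dividing CD4 cells and was 1.41-fold lower. Gzmb and Cd40lg were found together in 129 of 211 dividing CD4 cells, 61.1%, and the share with Gzmb was 92.8% with a Cd40lg UMI and 91.7% without. All 69 dividing CD4 cells with Ifng had Gzmb, whereas of the 18 with Tcf7, a factor of naive and stem-like T cells, 55.6% had it.

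All 7 tested genes of the killer-cell receptor list, Fcer1g among them, were lower in dividing CD4 cells. Klrk1 (chr6:129610323-129623864), which encodes NKG2D, was found in 7.58% against 69.3% of cells (15.2-fold lower, interval 10.6 to 22.6), Cd160 in 10.4% against 78.1% (11.7-fold) and Klrd1 in 22.3% against 76.5% (5.08-fold). Klrc1 was the most widespread of them in dividing CD4 cells, in 69.7% against 95% of cells. Of 8 tested genes of the inhibitory receptor and exhaustion list, Ctla4 and Cd200 were higher and Pdcd1, Lag3, Havcr2 and Cd160 lower. The chemokine Ccl5 was 2.54-fold lower. Xcl1 had 0 UMIs in dividing CD4 cells, a level 12.9-fold lower when the 0 was set to a floor of 3 UMIs over the group.

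**Figure D2:**
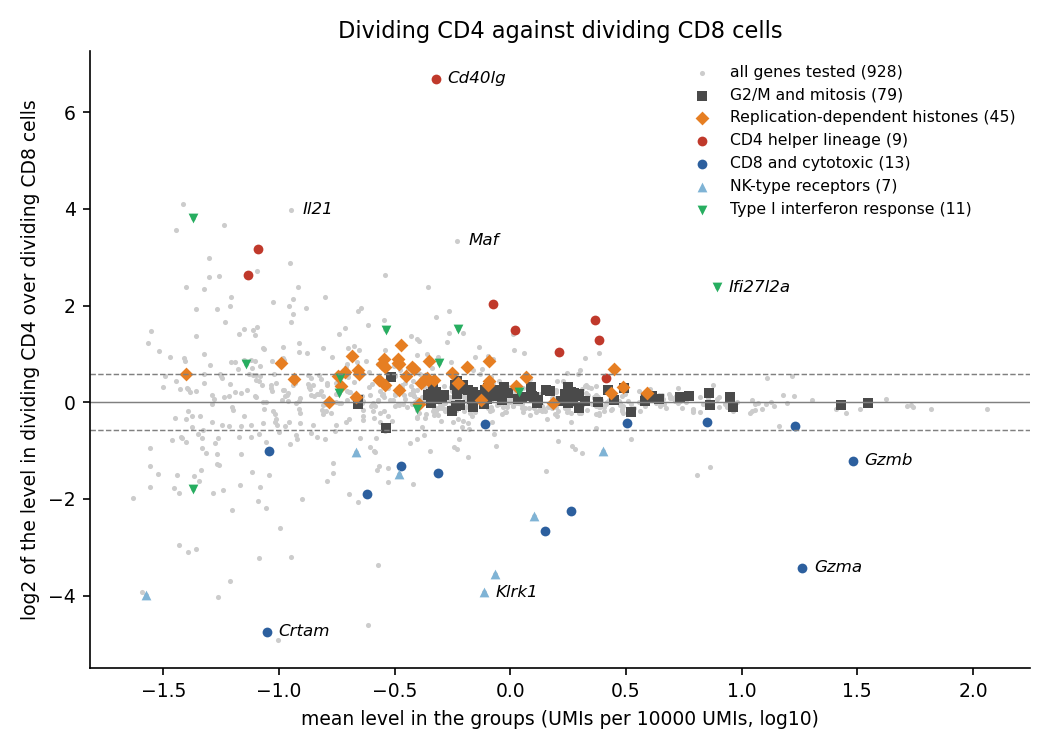
Each point is 1 of the 928 genes tested, placed by its mean level in the 2 groups (x axis, log10 of UMIs per 10000) and the log2 ratio of dividing CD4 to dividing CD8 cells (y axis), with dashed lines at 1.5-fold. The G2/M genes lie between the dashed lines, Cd40lg stands alone at 6.69, and cytotoxic and killer-cell genes lie below 0.

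Interferon-stimulated genes were higher in 6 of 11 cases and lower in 1. Ifi27l2a (chr12:103442167-103443680), an interferon-induced membrane protein gene, was found in 97.2% of dividing CD4 cells and 52.1% of dividing CD8 cells, with medians of 13 and 1 UMIs and a 5.21-fold higher level. Slfn1 was 2.84-fold higher and Isg20 2.83-fold higher, while Mx1, with 6 UMIs in dividing CD4 cells, was 3.49-fold lower. Isg20 was in 34.6% of dividing CD4 cells at 0.43 UMIs per 10000, and the cells of other lineages had it in 54.8% at 4.66 and Ifi27l2a in 76.2%. Of 9 interferon-gamma response genes, Gbp2, Igtp and Socs1 were higher and 0 lower.

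Among targets of IL-2 and STAT5, the survival gene Bcl2 was 1.77-fold higher in dividing CD4 cells, Socs1 1.74-fold, the cyclin Ccnd2 1.61-fold and the kinase Pim2 1.57-fold. The lowest log2 ratio of Ccnd2 across settings was 0.49, short of 1.5-fold. Gzmb was the lower one of the 10 tested. Il2ra, the alpha chain of the IL-2 receptor, was found in 30.8% against 44.4% of cells at 0.62 and 0.721 UMIs per 10000. Il2 itself had UMIs in 0.948% of dividing CD4 cells and 0.237% of dividing CD8 cells. Of 16 genes that NFAT or the T-cell receptor induces, 7 were higher (Ifng, Nr4a1, Egr1, Cd200, Dusp2, Tnf and Tnfrsf4) and 3 lower (Nr4a2, Xcl1 and Tnfrsf9). Nr4a1 was 2.68-fold higher and its relative Nr4a2 2.59-fold lower. Of 4 tested naive and stem-like genes, Tcf7, Id3 and Il6ra were higher in dividing CD4 cells, with a list median log2 ratio of 1.99. Each was found in few cells: Tcf7 in 8.53% against 2.49%, Id3 in 9.0% against 4.03% and Il6ra in 8.06% against 0.712%. Il7r, in 35.5% and 34.8% of cells, did not differ by 1.5-fold.

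**Figure D3:**
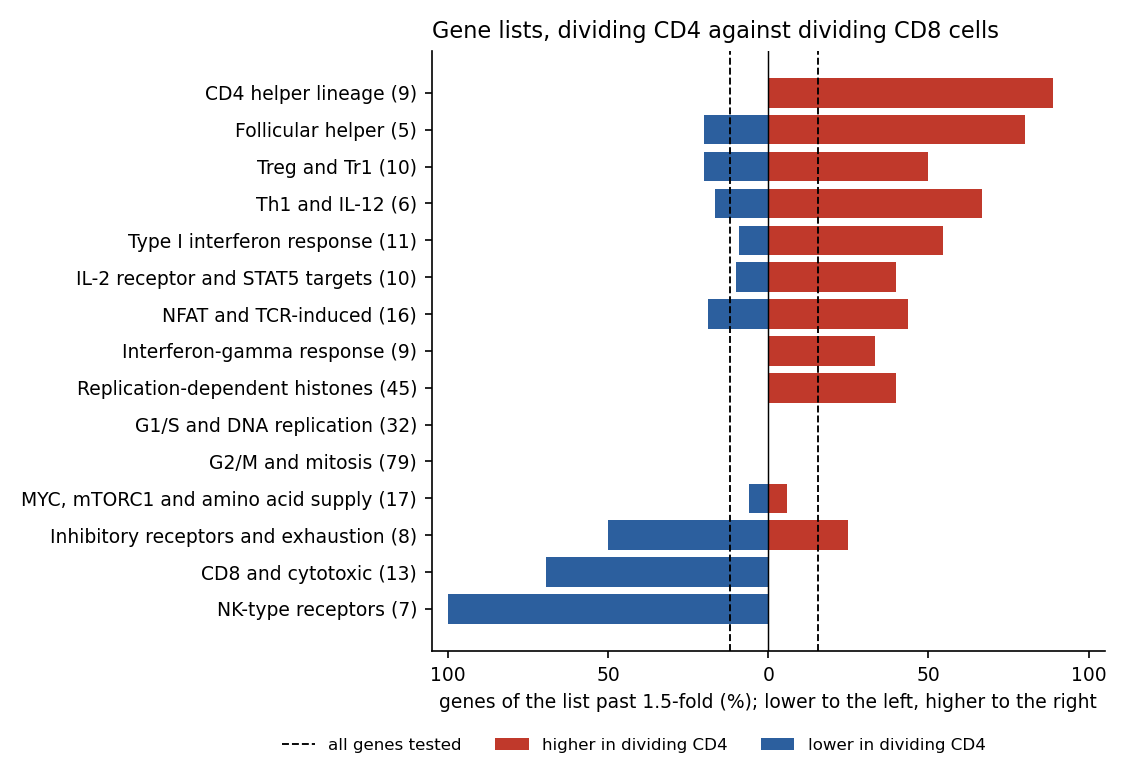
Percent of the tested genes of each list that were at least 1.5-fold higher (right, red) or lower (left, blue) in dividing CD4 than in dividing CD8 cells, with the number of tested genes in parentheses. Dashed lines mark the shares over all tested genes, 15.6% higher and 11.9% lower.

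Genes of the division programme did not pass the 1.5-fold rule between the lineages. Both groups were chosen by a UMI of Mki67 or Top2a, so similar levels of cycle genes follow in part from the rule. The values are given as a description. Of 79 G2/M and mitosis genes, 32 G1/S and DNA replication genes and 16 nucleotide synthesis genes, 0 were past 1.5-fold in either direction, with median log2 ratios of 0.12, 0.05 and 0.02. Summed over the G2/M list, dividing CD4 cells had a median of 192 UMIs per 10000 and ranged from 6.67 to 416, and dividing CD8 cells had a median of 188 and ranged from 11.4 to 443. The mitotic cyclin Ccnb1 was at 1.68 and 1.64 UMIs per 10000 and the kinase Plk1 at 1.88 and 1.85. Under other settings at most 1 gene of the G2/M list and 1 of the G1/S list was past 1.5-fold.

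Replication-dependent histones were the exception. Of 45 genes, 18 were higher in dividing CD4 cells and 0 lower, a share of 40.0% against 15.6% of all genes, and the list's median log2 ratio was 0.52. Hist1h3b stood at 0.813 and 0.489 UMIs per 10000, and Hist1h1a at 0.576 and 0.319, although both were found in similar shares of cells, 41.2 and 39.5% for Hist1h3b and 27% in both groups for Hist1h1a. Summed over the list, the median cell had 30.7 UMIs per 10000 in dividing CD4 cells and 19.8 in dividing CD8 cells. The histone genes are near-identical copies, so their reads could be split among copies, and each value is uncertain. Under the 11 other settings between 14 and 22 of the histone genes were higher.

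The promoters of the G2/M genes were also examined. These genes differ together between dividing and non-dividing cells, a contrast that the rule itself made with Mki67 and Top2a. Promoters are shown for Mki67 and Top2a, which chose the cells, and for Cdk1 and Cdc20, which encode the kinase and the activator of the ubiquitin ligase that drive entry into and exit from mitosis. Each line gives the 250 bases before the RefSeq gene start in GRCm38.p6 (the same assembly as mm10), read 5′ to 3′ on the gene's minus strand, at chr7:135716380-135716629, chr11:99024190-99024439, chr10:69352913-69353162 and chr4:118437344-118437593. Capitals mark CCAAT, the box bound by NF-Y, or its reverse complement ATTGG, and TTTGAA, the core of the cell-cycle homology region, or its reverse complement TTCAAA.
Mki67: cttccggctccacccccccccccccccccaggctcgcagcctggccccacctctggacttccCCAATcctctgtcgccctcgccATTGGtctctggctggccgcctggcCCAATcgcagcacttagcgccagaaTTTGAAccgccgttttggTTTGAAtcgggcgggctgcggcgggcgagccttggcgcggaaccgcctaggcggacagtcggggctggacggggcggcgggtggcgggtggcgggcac
Top2a: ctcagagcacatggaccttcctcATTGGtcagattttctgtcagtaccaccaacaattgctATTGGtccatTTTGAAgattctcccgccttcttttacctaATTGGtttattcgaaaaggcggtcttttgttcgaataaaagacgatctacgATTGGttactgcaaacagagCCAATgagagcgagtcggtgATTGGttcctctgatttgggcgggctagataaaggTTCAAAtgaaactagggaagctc
Cdk1: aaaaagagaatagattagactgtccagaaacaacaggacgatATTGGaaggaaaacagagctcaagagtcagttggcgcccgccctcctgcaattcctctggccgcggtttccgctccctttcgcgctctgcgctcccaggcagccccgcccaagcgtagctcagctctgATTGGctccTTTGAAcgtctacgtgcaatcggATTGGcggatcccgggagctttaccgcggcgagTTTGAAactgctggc
Cdc20: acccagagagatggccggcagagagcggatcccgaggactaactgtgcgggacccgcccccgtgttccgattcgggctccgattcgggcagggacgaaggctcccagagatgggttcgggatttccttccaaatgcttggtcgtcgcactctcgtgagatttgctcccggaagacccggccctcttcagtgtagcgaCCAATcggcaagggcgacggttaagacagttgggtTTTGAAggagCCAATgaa
CCAAT on either strand occurs 3, 6, 3 and 2 times in these promoters in the order printed, and TTTGAA 2, 2, 2 and 1 times. Of the 79 measured G2/M genes, 57 were matched by symbol to a promoter. CCAAT was in 75.4% of these 57, in 42.2% of the 1433 matched genes among the 2000 measured, and in 37.5% of all 27025 genes of the promoter table. TTTGAA was in 43.9%, 17.2% and 18.3%, and both were in 38.6%, 7.19% and 6.45%. Searches covered both strands of these 250 bases, the ends of the motifs can share letters, a gene with several starts counted if any start held the motif, and a match is a description of the letters, not of binding.

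Within the 211 dividing CD4 cells, genes differed along the cycle. The cells were ranked by the summed level of the 79 G2/M genes, which leaves out Mki67 and Top2a, and divided into ranges of 71, 70 and 70 cells with medians of 81.4, 192 and 314 UMIs per 10000. These ranges are drawn from the measured values, so what follows is a description. Ccnb1 stood at 0.399, 1.48 and 3.06 UMIs per 10000 and the replication helicase gene Mcm5 at 2.46, 2.16 and 1.44. Ccnb1 is among the 79 genes that ranked the cells, so its rise follows from the ranking. Summed histones stood at 16.4, 34.1 and 52.0. Median depth was 12436, 12891.5 and 15023.5 UMIs.

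Cd40lg, Icos and some other activation genes were nearly level across these ranges, while Il2ra, Myc and Tnfrsf4 were not. Cd40lg was found in 67.6, 62.9 and 67.1% of cells at 1.02, 0.996 and 0.828 UMIs per 10000, and Icos at 3.86, 3.37 and 3.47. Pdcd1 stood at 1.34, 1.35 and 1.17 and Lag3 at 1.21, 1.16 and 1.15. From the low to the high range Il2ra stood at 1.09, 0.577 and 0.23 UMIs per 10000. Myc, the growth-promoting transcription factor, stood at 1.18, 0.614 and 0.322, and Tnfrsf4 at 2.52, 0.847 and 0.782. The shares of cells with Il2ra were 32.4, 34.3 and 25.7% and with Tnfrsf4 54.9, 44.3 and 58.6%, so the shares differed less than the levels. Id3 was found in 21.1% of cells of the low range and in 2.86% of each other range, and Il21 in 26.8, 15.7 and 7.14%. In the opposite direction, Cd5 stood at 2.81, 3.08 and 4.35 and the granule gene Nkg7 at 11.5, 12.2 and 18.5 UMIs per 10000. The level of Gzmb showed no order, at 20.3, 14.2 and 20.5, but the share of cells with Gzmb was 85.9, 92.9 and 98.6%. After thinning, that share was 81.2, 92.4 and 95.5%.

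**Figure D4:**
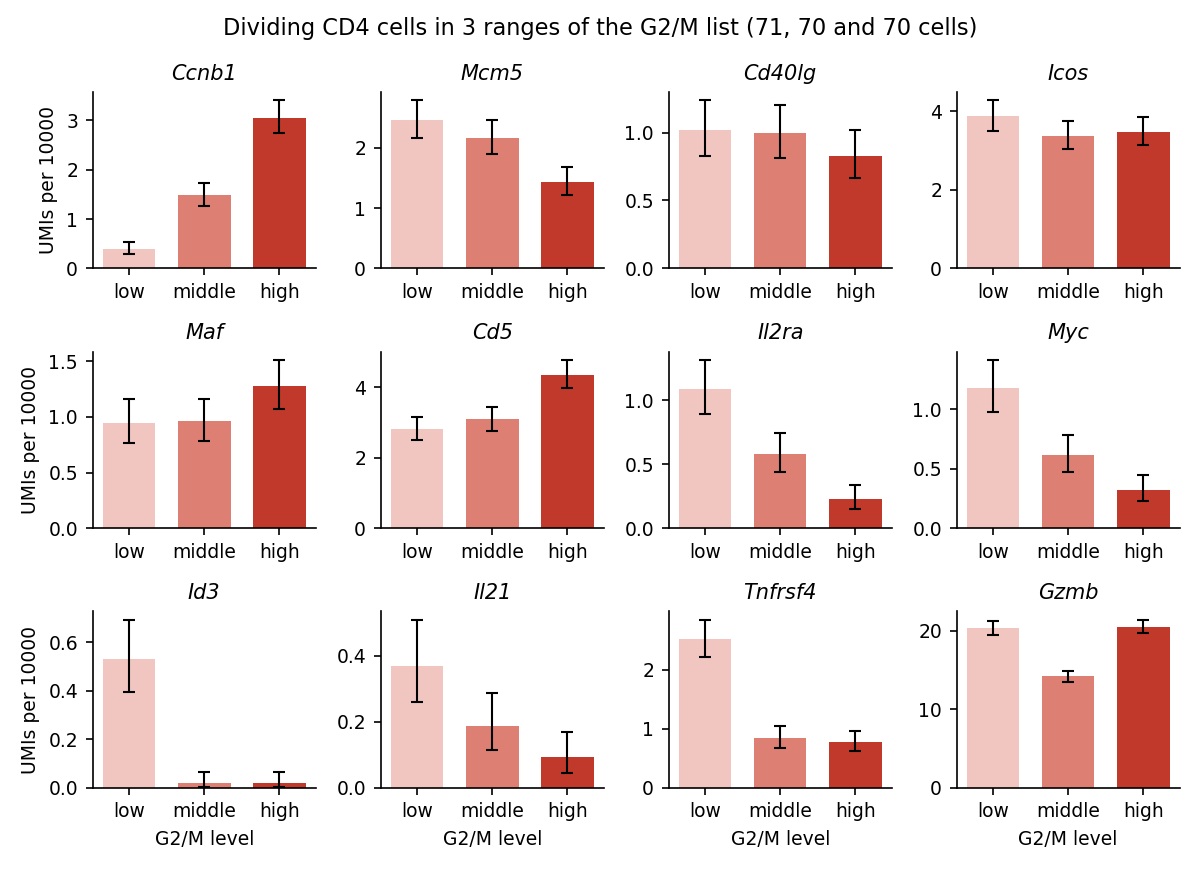
Level of 12 genes (y axis, UMIs per 10000) in dividing CD4 cells of the low, middle and high range of the summed G2/M list (71, 70 and 70 cells), with exact 95% Poisson intervals that cover counting error only. Il2ra, Myc and Tnfrsf4 are highest in the low range, while Cd40lg and Icos stay near level. Ccnb1, a gene of the ranking list, is highest in the high range.

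Against the 83 CD4 cells without Mki67 and Top2a, the comparison describes what else differs when CD4 cells divide. The rule used this contrast for the cell cycle, so the cycle genes are not a finding. Of 905 genes, 436 were higher in dividing CD4 cells (48.2%) and 133 were lower (14.7%), with a median log2 ratio over all tested genes of 0.54. Under median-of-ratios scaling that median was 0.18 and the counts 344 and 210, so 62.1% of the called genes were higher in place of 76.6%. All 79 G2/M genes and all 32 G1/S genes were higher, Cdk1 at 2.86 against 0.0395 UMIs per 10000, and 44 of 45 histones and 13 of 16 nucleotide synthesis genes. Among 17 growth genes of the MYC and mTORC1 list, 12 were higher and the stress gene Ddit4 lower: Ncl, a nucleolar protein, was 2.0-fold higher and Myc 2.77-fold higher.

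Genes of resting and recirculating T cells were lower in dividing CD4 cells, in 6 of 6 cases of the naive and stem-like list (median log2 ratio -1.96). Tcf7 (chr11:52252371-52283014) was found in 8.53% of dividing and 31.3% of non-dividing CD4 cells, at 0.187 and 1.49 UMIs per 10000, a 7.97-fold lower level (interval 5.77 to 11.1). Id3 was 4.53-fold lower and Il7r, the interleukin 7 receptor, 2.79-fold. Ccr7 was 3.33-fold lower, but with a minimum of 300 genes, which left 24 non-dividing CD4 cells, its log2 ratio was 0.15. Of 8 homing genes 6 were lower, among them Cxcr6 (1.63-fold) and Itgb1 (1.64-fold), whose log2 ratios by thinned shares were -0.10 and -0.20, short of 1.5-fold. Cxcr5 had 0 UMIs in dividing CD4 cells and was found in 14.5% of the non-dividing ones. With the 0 set to 3 UMIs, its level was 34.7-fold lower in dividing CD4 cells. Across settings the log2 ratio of Cxcr5 ran from -5.47 to -2.87. Tox2, a factor of follicular helper cells, was 8.33-fold lower. With a minimum of 300 genes Tox2 had a log2 ratio of -0.26, short of 1.5-fold.

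Interferon-stimulated genes were lower in dividing CD4 cells in 14 of 16 cases (median log2 ratio -1.62). Ifi27l2a stood at 13.1 and 29.5 UMIs per 10000, although its shares were 97.2% and 96.4%, and Rtp4 was found in 18.0% against 41.0% of cells. Among IL-2 and STAT5 targets Il2ra and Myc were higher, and Bcl2 (2.84-fold), Pim2 (2.22-fold) and Cish (4.60-fold) lower. Helper genes were not higher in dividing cells: of 9, 0 were higher and Tnfsf8, Izumo1r and Itgb1 lower, and Cd40lg stood at 0.946 against 1.12 UMIs per 10000. With a minimum of 300 genes Tnfsf8 had a log2 ratio of 0.071, Izumo1r of -0.016, Bcl2 of -0.40 and Pim2 of -0.54, and by thinned shares Il2ra had one of 0.18, so that these calls were lost. Cytotoxic genes went both ways, with Gzmc, Serpinb9 and Eomes higher and Gzma, Gzmm and Cd7 lower. Gzmb was found in 92.4% of dividing and 69.9% of non-dividing CD4 cells, and in 89.6% and 63.9% after thinning.

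The same comparison within CD8 cells is given side by side, with 393 of 902 genes higher (43.6%) and 156 lower (17.3%). Interferon-stimulated genes were lower in dividing CD8 cells in 15 of 15 cases and growth genes higher in 11 of 17. The median log2 ratio of the interferon list was -1.62 for CD4 and -1.73 for CD8 cells. Whether the lineages differ in this contrast was not tested, since there is 1 library. The non-dividing CD8 cells had summed B-cell markers at 5.32 UMIs per 10000 and myeloid markers at 3.79, against 0.276 and 0.079 in non-dividing CD4 cells. Of the 158 non-dividing CD8 cells, 17 had 2 or more B-cell marker UMIs and 4 had 2 or more myeloid marker UMIs. In non-dividing CD4 cells these numbers were 4 and 0. The part of these transcripts in the CD8 values was not tested.

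**Figure D5:**
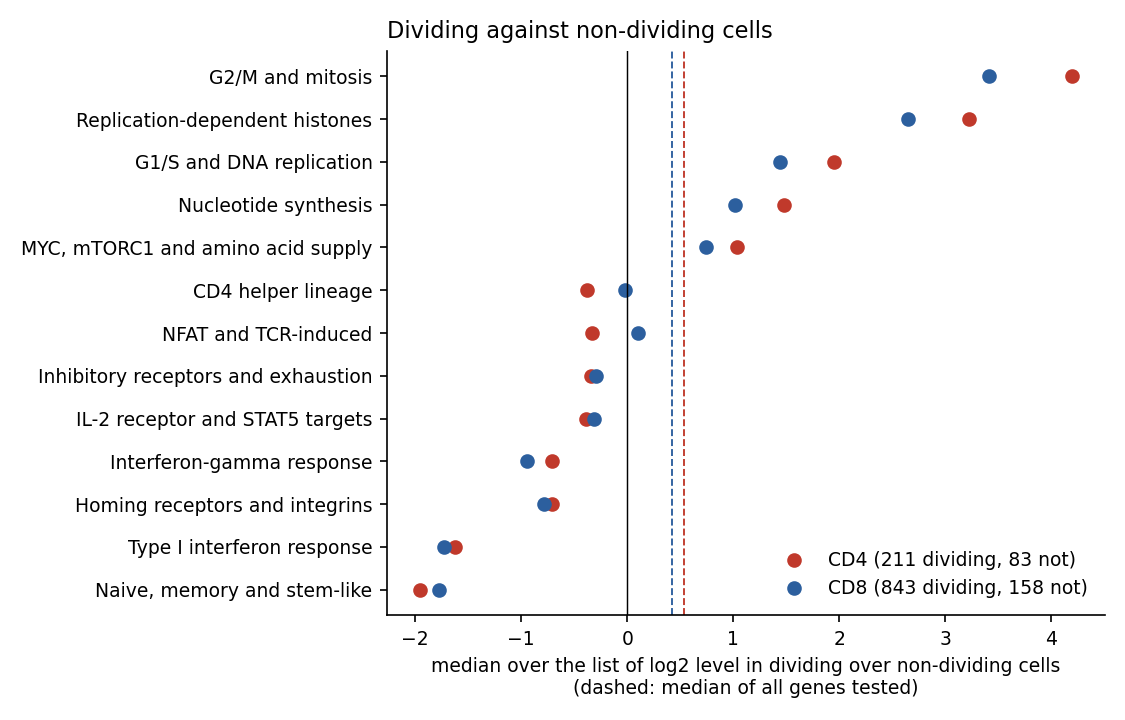
Median log2 ratio of dividing to non-dividing cells over each gene list (x axis), for CD4 cells in red and CD8 cells in blue, with dashed lines at the medians of all genes tested (0.54 and 0.42). Cycle and growth lists lie to the right of these lines, and the interferon and naive lists lie lowest, at -1.62 and -1.96 for CD4 cells.

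Against all 1264 other kept cells, 121 of 935 genes were higher in dividing CD4 cells (12.9%) and 141 lower (15.1%). Cd40lg led, at 0.946 against 0.112 UMIs per 10000 (8.46-fold), followed by Il21 (6.51-fold), Maf (4.51-fold), the doublecortin-like kinase Dclk1 (4.41-fold) and Gm15987 (3.85-fold). Podnl1, a matrix protein gene found in 57.3% of dividing CD4 cells and 21.6% of the others, was 3.49-fold higher, and the calcium-binding protein gene Tesc 2.84-fold. Of 45 histone genes 30 were higher, and of 79 G2/M genes 4. All 14 tested genes of the exocrine pancreas were lower, but 1 other cell held most of their UMIs: it had 5301 of the 5486 Try5 UMIs outside dividing CD4 cells. Try5 was found in 11.4% of dividing CD4 and 12.2% of other cells, and by thinned shares the list's median log2 ratio was 0.14 in place of -4.78.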

How the data were processed

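Spleen cells were profiled with a droplet-based 5′ kit, per the labels' protocols. Cell Ranger 3.1.0, Seurat and mm10 are named in the submitters' processing notes. The authors deposited natural log values for 2000 genes, and which filters they put on cells is not stated. The log was undone and each cell's values were divided by its smallest value above 0. After this, 100% of the tacrolimus values above 0 were whole numbers (tolerance 0.001), and 0 values were negative. Each cell's total was taken from a scale of 50000, which the whole-number check does not test. The UMIs and each cell's total were recovered in this way and summed over cells. The same file held 308 columns of the anti-IL-2 library, which were not used, and T-cell receptor data were not analysed here.

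Cells under 200 genes were left out (213 cells, 12.6%). No doublet caller was run: 93 cells with both Cd4 and a Cd8 transcript fell outside the rule, and an alternative drops the 10% of cells with most UMIs. Ratios of summed UMIs carry exact intervals at 95%, and a group at 0 was set to 3 UMIs. Genes in at least 5% of cells of either group were tested by size, 1.5-fold, with the rule's 5 genes left out. Named genes were the 15 highest and 15 lowest ratios among genes in at least 10% of cells, the members of short lists, and the highest-level members of longer ones. Plk1, Ccnb1, Mcm5, Hist1h3b, Hist1h1a, Rtp4, Cdc20, Cdkn1a, Ccl3, Ccl4 and Ifitm1 were chosen after their values were seen. The members and the lists were chosen with earlier results of these data known. Alternatives changed the scaling, the gene and share minimums, the UMIs required and the cells included. The comparison was tested on simulated data that held counting error only, without further spread between the cells of a group. Python 3.11.15, numpy 2.4.6, pandas 2.3.3 and scipy 1.17.1 were used, with gene positions from GENCODE M21.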

Additional observations from a re-analysis of the deposited data

Results flagged for a closer look

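A signal outside the T-cell genes appeared in dividing CD4 cells. At least 1 UMI of 30 measured genes of the exocrine pancreas was found in 75.8% of them (interval 69.5 to 81.4%), in 78.9% of dividing CD8 cells and in 66.7% of the 42 cells of other lineages. The summed level of these genes was 1.51, 1.41 and 1.45 UMIs per 10000. Non-dividing CD4 cells had them in 79.5% of cells at 2.71 UMIs per 10000, and non-dividing CD8 cells in 82.3% at 2.41. Of 15 tested genes of the list, 11 were lower in dividing than in non-dividing CD4 cells, with a median log2 ratio of -1.06. The source of the transcripts was not tested.

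Cells that the rule left out also carried the leading gene. Of 73 dividing cells with both Cd4 and Cd8b1 or Cd8a, 54.8% had Cd40lg (interval 42.7 to 66.5%), against 1.30% of dividing CD8 cells. Their median depth was 17855 UMIs, and 38.4% had Klrk1 and 60.3% Maf. The 30 of them with a single Cd8a or Cd8b1 UMI had Cd40lg in 46.7% and Klrk1 in 23.3% of cells, and the 43 with 2 or more had Cd40lg in 60.5% and Klrk1 in 48.8%. The deeper 43 cells had a median of 21010 UMIs. Whether they are doublets was not tested.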

How the results depend on the processing

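No paired analysis was possible because each treatment is 1 library. With 1 library, intervals cover counting error only, genes seen in few cells are imprecise, and only the 2000 deposited genes could be measured. Of 49 genes followed in the comparison with dividing CD8 cells, 0 called ratios changed direction under 11 settings. Values stayed within the counting interval in 483 of 539 cases. Cd40lg lay between 6.17 and 7.55 on the log2 scale.

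Counts of genes moved with the share minimum. Against dividing CD8 cells, 679 were higher and 221 lower with no minimum, and 81 and 54 with 20%. Against non-dividing CD4 cells 482 were lower with no minimum, 67 with 20% and 210 under median-of-ratios scaling. Against all other kept cells 600 were higher and 442 lower with no minimum, and 78 and 45 with 20%. In CD8 cells the genes lower in dividing cells numbered 895, 68 and, by thinned shares, 103. With a lower minimum more genes are tested. The dividing share of CD4 cells was 63.2% after thinning, 64.8% with no gene minimum and 88.5% with 300 genes, and that of CD8 cells 76.6%, 81.7% and 94.5%.

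Directions turned in 3 called values. Against non-dividing CD4 cells, with a minimum of 300 genes, Ccr7 had a log2 ratio of 0.15 and Tnfsf8 of 0.071. Against all other kept cells the pancreatic list had a median of 0.14 by thinned shares. The cause was not tested.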

Other observations

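Dividing cells without any Cd4, Cd8a or Cd8b1 UMI numbered 51, at a median of 11796 UMIs. Cd40lg was found in 23.5% of them (interval 12.8 to 37.5%), Maf in 35.3%, Klrk1 in 7.84% and Gzmb in 56.9%. Dividing CD4 cells had these genes in 65.9, 69.7, 7.58 and 92.4% of cells.

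Of the dividing CD4 cells with the most UMIs of a gene, the top 11 held 88.4% of Ccl4 UMIs, 82.3% of Ccl3 UMIs and 96.9% of Ifitm1 UMIs, against 23.1% for Cd40lg and 26.8% for Gzmb. The levels of the first 3 genes thus rest on few cells. Cdkn1a, which encodes the cell-cycle inhibitor p21, was found in 28.4% of dividing CD4 cells and 11.3% of dividing CD8 cells, at 0.364 and 0.12 UMIs per 10000.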
